A study of Mus musculus with 48 samples.

Results

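The genes described here clear serotonin from the extracellular space, load it into vesicles or break it down. They were chosen by gene symbol, 7 of the 48440 genes in the count table: the serotonin transporter gene Slc6a4, the antisense gene Gm12343 that lies inside it, the transporter genes Slc22a3 and Slc29a4, the vesicular transporter gene Slc18a2, and the monoamine oxidase genes Maoa and Maob. Each name matched 1 row of the table, and all 7 genes passed the filter on low counts, which kept 31208 genes.

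Hippocampal RNA was sequenced from 48 female mice aged 3 months, the offspring of C57BL6/J dams and 5-Htt+/- sires of a line with a disrupted serotonin transporter gene (Slc6a4tm1Kpl). The dams of stressed offspring were restrained from embryonic day 13 to 17, and control (C) dams were not. The stressed offspring were divided by their social behaviour into SA offspring, which the labels call susceptible, and SU offspring, which they call resilient. The question was how the transporter genotype and prenatal stress bear on gene expression in offspring that were or were not affected. There were 8 C, 8 SA and 8 SU libraries labelled 5-Htt+/+ and 7 C, 8 SA and 9 SU libraries labelled 5-Htt+/-. The allele is constitutive, so that it was present in all tissues and throughout development, and the 5-Htt+/- label stands for 1 disrupted copy from the sire. The measured level of Slc6a4 went against this label, as described with that gene. A library was made from the left and right hippocampus of 1 animal. The litter of an animal is not given in the labels, and p-values therefore measure the spread between libraries, some of which may share a dam.

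Serotonin is made from tryptophan in the neurons of the raphe nuclei, whose axons reach the hippocampus while their cell bodies, and most of their mRNA, stay in the brainstem. The high-affinity transporter 5-HTT, encoded by Slc6a4, carries released serotonin back into the axon. Transporters of lower affinity and higher capacity also take up monoamines: OCT3, encoded by Slc22a3, and PMAT, encoded by Slc29a4. Inside the neuron serotonin is either packed into vesicles by VMAT2, encoded by Slc18a2, or oxidised at the outer mitochondrial membrane by the monoamine oxidases MAO-A and MAO-B. MAO-A prefers serotonin and noradrenaline, and MAO-B, found mainly in astrocytes and serotonergic neurons, prefers phenylethylamine. In bulk tissue, fewer cells of a type and less RNA per cell cannot be told apart.

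The labelled tissue was checked against marker genes. The summed level of 6 hippocampal neuron markers was 2922 to 4357 CPM over all libraries (CPM being read counts scaled to library size, without gene length). Most of this sum came from Camk2a, with a mean of 2841 CPM. The summed level of 6 serotonergic neuron markers was 3.37 to 5.66 CPM in libraries labelled 5-Htt+/+ and 3.64 to 5.68 CPM in those labelled 5-Htt+/-. Tph2, the neuronal enzyme for serotonin synthesis, stood at 1.32 ± 0.332 CPM in 5-Htt+/+ and 1.44 ± 0.350 CPM in 5-Htt+/- libraries (SD, n = 24 each). Tph2 and Gata2 (mean 2.29 CPM over all libraries) made up most of the serotonergic sum. The means of Lmx1b, Gata3, En1 and Fev were 0.31, 0.14, 0.061 and 0.030 CPM. Libraries held 16488405 to 38213754 counts (median 24125647.5). In 20 libraries, 10 of each genotype label, the choroid plexus gene Ttr stood at 225.8 to 788 CPM, and in the other 28 at 4.93 to 34.8 CPM. Of the C, SA and SU libraries, 3, 5 and 2 were of the first kind in 5-Htt+/+ and 1, 3 and 6 in 5-Htt+/-.

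Slc6a4 lies on the plus strand of chromosome 11 (GRCm38, chr11:76998603-77032340). Gm12343 (chr11:77008914-77009873) is on the minus strand, inside an intron of Slc6a4, and ends 458 bases before the second exon of Slc6a4, which holds the start codon. The exons of both genes share 0 bases in the GENCODE annotation. The sequences shown are the start of the Slc6a4 coding region, the 5′ end of Gm12343 and the Slc6a4 promoter. The Gm12343 end faces the coding start on the other strand. They are shown because Slc6a4 differed between genotype labels and Gm12343 lies inside it. The first run is the start of the Slc6a4 coding region (GRCm38, chr11:77010441-77010590, plus strand, start codon in capitals), and the second is the 5′ end of Gm12343 (GRCm38, chr11:77009724-77009873, minus strand). The third is the RefSeq window from 250 bases before to 50 after the Slc6a4 start (GRCm38.p6, chr11:76998347-76998646, plus strand), with capitals for the GC box GGGCGG read on either strand.
Slc6a4 coding start: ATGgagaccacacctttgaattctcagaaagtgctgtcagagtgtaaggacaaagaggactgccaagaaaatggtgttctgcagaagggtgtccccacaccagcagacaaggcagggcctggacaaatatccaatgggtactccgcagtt
Gm12343 5′ end: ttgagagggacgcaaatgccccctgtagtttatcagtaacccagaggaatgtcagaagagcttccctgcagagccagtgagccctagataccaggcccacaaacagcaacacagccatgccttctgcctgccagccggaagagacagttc
Slc6a4 promoter: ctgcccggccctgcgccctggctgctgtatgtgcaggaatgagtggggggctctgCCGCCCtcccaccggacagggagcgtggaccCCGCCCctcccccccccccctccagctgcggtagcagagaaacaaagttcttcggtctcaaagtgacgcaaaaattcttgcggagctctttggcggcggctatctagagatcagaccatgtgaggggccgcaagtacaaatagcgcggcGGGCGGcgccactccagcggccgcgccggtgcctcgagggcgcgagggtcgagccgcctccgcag
Promoter windows were found for 6 of the 7 genes, Maob being the exception. The Slc6a4 window held 3 GC boxes and no TATAAA on either strand, whereas TATAAA was in the windows of Slc29a4 and Gm12343. GC boxes numbered 9 in Slc29a4 and 2 each in Slc18a2 and Maoa, whereas none was in the windows of Slc22a3 and Gm12343. Over 32851 windows of this length, 35.7% held a GC box and 13.6% held TATAAA. Such matches describe letters in a window and do not mark a bound site.

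Slc6a4 separated the libraries by genotype label without overlap. In libraries labelled 5-Htt+/+ its level was 0 to 0.262 CPM, with 0, 0.102 and 0.253 CPM in C, 0.0601, 0.202 and 0.262 CPM in SA and 0, 0.111 and 0.195 CPM in SU offspring (lowest, median and highest of 8 each). These levels rested on 0 to 6 reads per library and 81 reads in all. In libraries labelled 5-Htt+/-, it was 13.6, 15.5 and 15.9 CPM in C (n = 7), 12.8, 15.0 and 16.9 CPM in SA (n = 8) and 13.3, 14.8 and 17.0 CPM in SU offspring (n = 9), from 207 to 532 reads per library. The highest 5-Htt+/+ library, at 0.262 CPM, stayed far below the lowest 5-Htt+/- library, at 12.8 CPM. The 5-Htt+/- label names the loss of 1 intact copy, and the level of the transcript went the opposite way, so that the genotypes are given here as labels. What set the level in the 5-Htt+/- libraries was not tested.

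The fitted difference in Slc6a4 between genotype labels over all groups was 6.72 on the log2 scale. Its adjusted p was 4.34e-48 in edgeR's quasi-likelihood test with Benjamini-Hochberg adjustment. No SE or interval is given for this difference. An SE taken from F would understate the counting error of the 81 reads in 5-Htt+/+ libraries. The difference was 6.93 in C, 6.24 in SA and 6.996 in SU offspring, called in each condition. The 5-Htt+/+ side of these values rested on 25, 35 and 21 reads, so that their sizes are uncertain. The SA value was set apart from the SU value by 0.76 in the three-way interaction, which was not called by the same edgeR test (unadjusted p = 0.0509, adjusted p = 0.9999). Over all groups 0.0224% of all genes tested were called, and Slc6a4 and Gm12343 were the members among them. Gm12343 had passed the filter only through the 5-Htt+/- libraries, so that its call is not read against this share. Within C, SA and SU offspring Slc6a4 was the only member called, where 0.0128%, 0.00961% and 0.00961% of all genes tested were called. In the 5-Htt+/- libraries the level of Slc6a4 was also even, with a coefficient of variation of 7.23% across 24 libraries. Among 3077 genes with a mean of 10 to 20 CPM in these libraries, the median coefficient of variation was 11.0%, and 7.96% of the genes varied less than Slc6a4.

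Gm12343, a long non-coding RNA gene antisense to Slc6a4, was higher in the libraries labelled 5-Htt+/- but rested on few reads. It had 8 reads in all 24 libraries labelled 5-Htt+/+, of which 17 had none, and 74 reads in the 24 labelled 5-Htt+/-, of which 1 had none. Its level in 5-Htt+/+ libraries had a median of 0 in C, SA and SU offspring and a highest value of 0.0472, 0.0851 and 0.0352 CPM. In 5-Htt+/- libraries it was 0, 0.118 and 0.191 CPM in C, 0.0443, 0.162 and 0.265 CPM in SA and 0.0346, 0.102 and 0.159 CPM in SU offspring. The ranges of the genotype labels thus overlapped in each condition. The log2 fold change over all groups was 2.77 (adjusted p = 6.90e-06 in edgeR's quasi-likelihood test with Benjamini-Hochberg adjustment). No SE or interval is given, since one taken from F would understate the counting error of 8 reads in 5-Htt+/+ libraries. Within conditions the value was 2.94 in C (adjusted p = 0.230), 2.63 in SA (adjusted p = 0.193) and 2.74 in SU offspring (adjusted p = 0.797), none of which was called by the same edgeR test. The SA value was called by edgeR's likelihood ratio test (adjusted p = 0.013), and by the quasi-likelihood test without 5-Htt+/+ SA replicate 7 (adjusted p = 0.0367). That library held 2 reads of Gm12343, the most of any 5-Htt+/+ library, so that leaving it out widens the difference. Gm12343 passed the filter on low counts only through libraries labelled 5-Htt+/-, the group in which it was high. Without a stated strand setting for the counting, reads of Gm12343 and unspliced reads of Slc6a4 cannot be told apart. Reads at Gm12343 numbered 0.825% of those at Slc6a4 in the 5-Htt+/- libraries (74 of 8969) and 9.88% in the 5-Htt+/+ libraries (8 of 81).

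**Figure D1:**
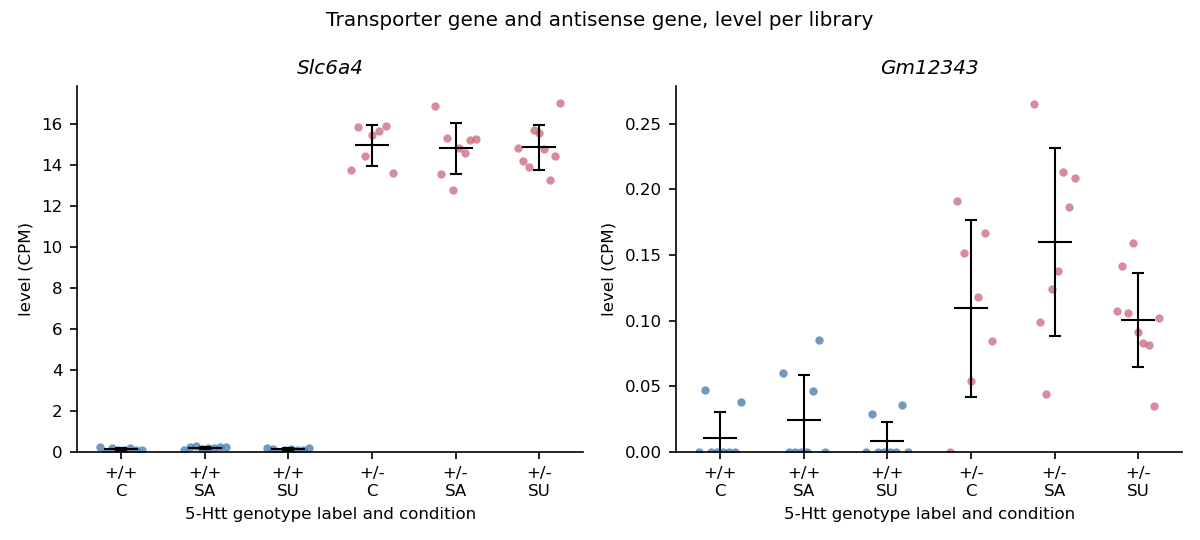
Level of Slc6a4 (left) and Gm12343 (right) in CPM, on linear axes, in each of the 48 libraries by 5-Htt genotype label (+/+ blue, +/- red) and condition; points are libraries, horizontal marks are group means and bars are 1 SD, cut at 0. Slc6a4 stood at 12.8 CPM or more in each 5-Htt+/- library and at 0.262 CPM or less in each 5-Htt+/+ library, whereas the Gm12343 ranges overlapped.

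No other tested gene near Slc6a4 was called. Of 11 other tested genes within 200 kb, edgeR's quasi-likelihood test called 0 between genotype labels over all groups. An unadjusted p under 0.05 was reached by 0 of them. Over all genes tested these shares were 0.0224% and 4.49%, so that 0 of 11 does not set these genes apart. Blmh, a cysteine protease gene that ends 11.2 kb before Slc6a4, was at 38.7 CPM in 5-Htt+/+ and 39.8 CPM in 5-Htt+/- libraries (log2 fold change 0.04, 95% interval -0.0066 to 0.088). Nsrp1, a splicing regulator gene on the other side, was at 12.3 and 12.6 CPM (log2 fold change 0.014, 95% interval -0.13 to 0.16). The log2 fold changes of these 11 genes ranged from -0.06 to 0.50, the highest being that of the lincRNA Gm45027, which was below 0.1 CPM.

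Besides these 2 members, 5 genes were called between genotype labels over all groups, all higher in libraries labelled 5-Htt+/-. On chromosome 11, Trpv1, a heat-gated cation channel gene, rose from 0.232 ± 0.173 to 1.13 ± 0.254 CPM (SD, n = 24 each), Xaf1 from 4.84 to 6.55 CPM, Shpk from 4.30 to 5.41 CPM and Cyb5d2 from 10.8 to 12.2 CPM, at 3.74 to 4.68 Mb from Slc6a4. The fifth, 1700128E19Rik on chromosome 8, rose from 3.94 to 6.71 CPM. The 5 genes whose log2 CPM over 48 libraries was most like that of Slc6a4 were among the called genes: Trpv1 (r = 0.870), 1700128E19Rik (0.843), Gm12343 (0.788), Xaf1 (0.731) and Shpk (0.712). These correlations are carried by the 2 genotype labels and are given as a description. What set the levels of the called genes on chromosomes 11 and 8 was not tested.

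The alternative transporters did not differ detectably between genotype labels. Slc22a3 (chr17:12419972-12507704, minus strand) was low, at 0.423 to 1.65 CPM and 8 to 62 reads per library. Its level was 0.729, 1.0 and 1.65 CPM in C, 0.601, 0.967 and 1.40 CPM in SA and 0.580, 0.869 and 1.07 CPM in SU 5-Htt+/+ libraries, and 0.666, 0.911 and 1.34 CPM, 0.443, 1.0 and 1.42 CPM and 0.423, 0.818 and 1.37 CPM in the same conditions of 5-Htt+/- libraries (lowest, median and highest). The groups overlapped throughout. The log2 fold change between genotype labels over all groups was -0.03 (95% interval -0.25 to 0.20, adjusted p = 0.980 in edgeR's quasi-likelihood test with Benjamini-Hochberg adjustment).

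Slc29a4 (chr5:142692512-142722490, plus strand) stood at 15.4 to 36.0 CPM. Its level was 15.4, 26.6 and 33.1 CPM in C, 19.0, 26.2 and 36.0 CPM in SA and 20.8, 26.0 and 31.8 CPM in SU 5-Htt+/+ libraries, and 20.9, 28.3 and 31.9 CPM in C, 18.8, 25.1 and 33.8 CPM in SA and 23.4, 26.2 and 29.3 CPM in SU 5-Htt+/- libraries. The group ranges overlapped, and the SU 5-Htt+/- libraries had the narrowest range. The genotype difference over all groups was 0.006 on the log2 scale (95% interval -0.13 to 0.14). Per kb of exon, the mean level over all libraries was 9.22 CPM for Slc29a4 and 0.210 CPM for Slc22a3, so that PMAT transcripts were the more abundant per length.

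Slc18a2 (chr19:59260878-59296012, plus strand), whose product fills synaptic vesicles with monoamines, stood at 3.45 to 8.28 CPM. Its level was 3.45, 5.99 and 8.15 CPM in C, 4.26, 6.15 and 7.29 CPM in SA and 5.29, 6.21 and 7.61 CPM in SU 5-Htt+/+ libraries, and 4.05, 5.66 and 7.28 CPM in C, 4.20, 6.93 and 8.28 CPM in SA and 4.02, 7.11 and 7.78 CPM in SU 5-Htt+/- libraries. All ranges overlapped, and 5-Htt+/- controls had the lowest mean, 5.65 ± 1.40 CPM (SD, n = 7). The log2 fold change between genotype labels was 0.03 (95% interval -0.13 to 0.20). In 5-Htt+/- libraries SA and SU offspring differed from C by 0.25 (SE 0.147) and 0.22 (SE 0.144), neither called by edgeR's quasi-likelihood test with Benjamini-Hochberg adjustment (adjusted p = 0.487 and 0.468). The 3 genes most like Slc18a2 after removal of group means were Ccne2 (r = 0.914), Slc24a5 (0.902) and Mier1 (0.902), over 48 libraries.

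Maoa (chrX:16619698-16687818, plus strand) stood at 21.7 to 32.6 CPM. Its level was 22.3, 27.1 and 32.6 CPM in C, 23.0, 27.4 and 30.1 CPM in SA and 25.2, 27.8 and 28.5 CPM in SU 5-Htt+/+ libraries, and 21.7, 25.0 and 29.1 CPM in C, 21.9, 26.2 and 31.2 CPM in SA and 23.9, 27.5 and 31.6 CPM in SU 5-Htt+/- libraries. The groups overlapped, and 5-Htt+/- controls had the lowest mean, 24.7 ± 2.39 CPM (SD, n = 7). The log2 fold change between genotype labels was -0.06 over all groups (95% interval -0.13 to 0.02) and -0.14 in controls (95% interval -0.28 to -0.0062, adjusted p = 0.653 in edgeR's quasi-likelihood test with Benjamini-Hochberg adjustment), not called. In 5-Htt+/- libraries the level was 0.16 higher on the log2 scale in SU than in C offspring (95% interval 0.029 to 0.29, adjusted p = 0.267 by the same edgeR test), not called.

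Maob (chrX:16709282-16817366, minus strand) stood at 14.3 to 25.1 CPM. Its level was 15.7, 18.8 and 20.3 CPM in C, 15.8, 18.7 and 25.1 CPM in SA and 16.1, 17.5 and 20.6 CPM in SU 5-Htt+/+ libraries, and 15.6, 17.5 and 18.3 CPM in C, 14.3, 16.7 and 19.0 CPM in SA and 17.1, 19.7 and 23.4 CPM in SU 5-Htt+/- libraries. The groups overlapped, and SU 5-Htt+/- libraries had the highest mean, 19.8 ± 2.10 CPM (SD, n = 9), against 17.0 ± 1.55 CPM in SA (n = 8) and 17.2 ± 0.866 CPM in C (n = 7). The log2 fold change between genotype labels over all groups was -0.05 (95% interval -0.13 to 0.034). In SA offspring it was -0.19 (95% interval -0.33 to -0.043, adjusted p = 1.0 in edgeR's quasi-likelihood test with Benjamini-Hochberg adjustment), not called. Per kb of exon the mean level over all libraries was 6.43 CPM for Maoa and 6.57 CPM for Maob.

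Maob had the smallest unadjusted p-values among the members in the stress comparisons. The log2 fold change in 5-Htt+/- libraries was -0.22 for SA against SU (SE 0.0695, unadjusted p = 0.00287) and 0.20 for SU against C (SE 0.0723, unadjusted p = 0.00956). In the three-way interaction, which sets SA minus SU in 5-Htt+/+ against SA minus SU in 5-Htt+/- libraries, it was 0.32 (SE 0.0999, unadjusted p = 0.00231). None was called by edgeR's quasi-likelihood test after Benjamini-Hochberg adjustment (adjusted p = 1.0, 0.228 and 0.9999). Libraries with high Ttr had 19.4 ± 2.24 CPM of Maob (SD, n = 20) and the other libraries 17.6 ± 1.56 CPM (n = 28), and high-Ttr libraries were 6 of 9 in SU but 3 of 8 in SA and 1 of 7 in C 5-Htt+/- offspring. With the choroid plexus score as a covariate the 3 values were -0.19, 0.15 and 0.24 (unadjusted p = 0.00422, 0.0315 and 0.0157).

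**Figure D2:**
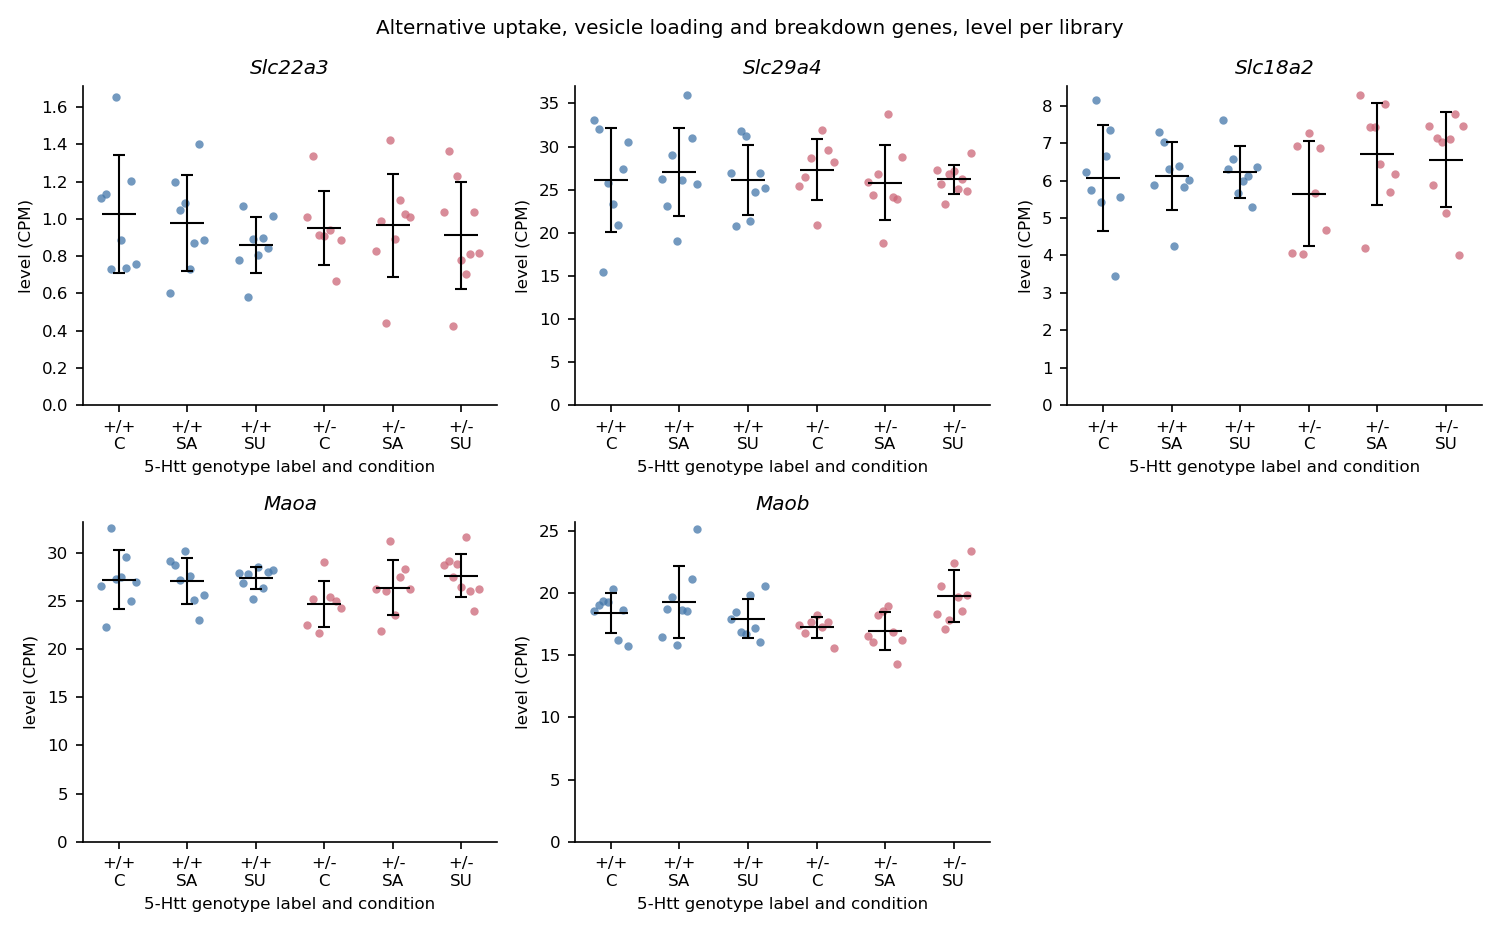
Levels in CPM of Slc22a3, Slc29a4, Slc18a2, Maoa and Maob in each library by 5-Htt genotype label (+/+ blue, +/- red) and condition, on linear axes that start at 0. Points are libraries, horizontal marks are group means and bars are 1 SD. The ranges of the groups overlapped for all 5 genes.

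No member passed the threshold in a comparison of prenatal stress or susceptibility. In the 8 comparisons among conditions, edgeR's quasi-likelihood test called 0 of 56 member values, 5 had an unadjusted p under 0.05, and DESeq2 also called 0, with 4 under 0.05. The 5 values were Maoa and Maob for SU against C in 5-Htt+/-, where 14.7% of all genes tested had an unadjusted p under 0.05, Slc6a4 for SA against SU in 5-Htt+/+ (3.49% of all genes), Maob for SA against SU in 5-Htt+/- (3.25%) and Maob in the three-way interaction (3.38%). In the other 4 comparisons no member had one, against 12.3% of all genes for prenatal stress, 2.52% for SA and 2.96% for SU against C in 5-Htt+/+ and 11.4% for SA against C in 5-Htt+/-. For all genes tested, the share called was 0.0385% for prenatal stress over both genotypes, 0% for SA and 0.0032% for SU against C in 5-Htt+/+, and 0.0256% for SA and 0.016% for SU against C in 5-Htt+/- libraries. It was 0% for SA against SU in either genotype label and 0% in the three-way interaction. In the 4 comparisons with no called gene, 786 genes for SA against C in 5-Htt+/+, 1089 and 1014 genes for SA against SU in 5-Htt+/+ and 5-Htt+/-, and 1055 genes in the three-way interaction had an unadjusted p under 0.05, and DESeq2 called 0, 1, 0 and 0 genes. Slc6a4 in 5-Htt+/- libraries differed from C by -0.01 on the log2 scale in SA (95% interval -0.19 to 0.17) and -0.01 in SU (95% interval -0.18 to 0.16) offspring. In 5-Htt+/+ libraries, SA offspring had 35 reads of Slc6a4 in 8 libraries and SU offspring 21, with a log2 fold change of 0.76 (unadjusted p = 0.0453, adjusted p = 1.0 in edgeR's quasi-likelihood test with Benjamini-Hochberg adjustment).

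**Figure D3:**
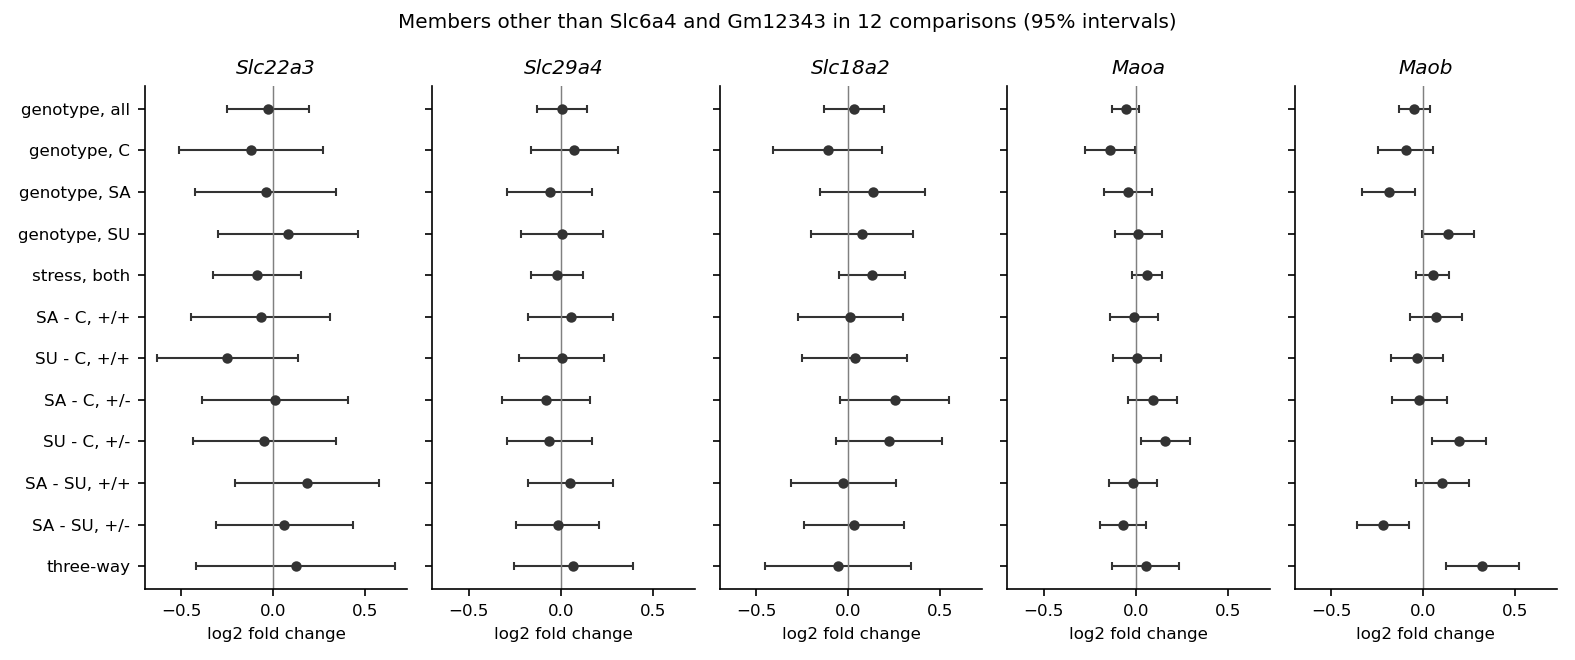
Log2 fold changes of Slc22a3, Slc29a4, Slc18a2, Maoa and Maob in the 12 comparisons, with 95% intervals of edgeR's quasi-likelihood fit as bars; C, SA and SU are the conditions and +/+ and +/- the genotype labels. None of these 60 values was called, and the largest in size was that of Maob in the three-way interaction at 0.32.

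Among 5 further lists of genes that act before, beside or after the members, no gene was called in any of the 12 comparisons. Of 43 listed genes 41 were tested, and between genotype labels over all groups 1 of them had an unadjusted p under 0.05 (2.44%, against 4.49% of all genes tested). The count was 9 of 41 for SU against C in 5-Htt+/- (22.0%, against 14.7%), 9 for prenatal stress (22.0%, against 12.3%), 7 for SA against C in 5-Htt+/- (17.1%, against 11.4%) and 6 between genotype labels in C (14.6%, against 7.61%). In the remaining 7 comparisons it was 1 to 4 (2.44% to 9.76%, against 2.52% to 3.49% of all genes). The 4 were for SA against SU in 5-Htt+/- (9.76%, against 3.25%). The 1 gene between genotype labels over all groups was Scamp2, a membrane trafficking gene whose product binds the transporter, at 15.9 ± 1.38 CPM in 5-Htt+/+ and 17.0 ± 1.05 CPM in 5-Htt+/- libraries (SD, n = 24 each; log2 fold change 0.10, SE 0.0308, adjusted p = 0.956 in edgeR's quasi-likelihood test with Benjamini-Hochberg adjustment). In the same list Stx1a, the syntaxin that binds the transporter, had a log2 fold change of 0.08 (SE 0.0493), and the median of 9 genes was 0.0071 against -0.0006 over all genes tested.

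The other transporters had 5 of 6 genes tested. Slc18a1, the other vesicular transporter, stood at 2.61 CPM (log2 fold change 0.09, SE 0.102). Of the 9 genes for synthesis and its cofactor, Tph2 had the smallest p (0.14, SE 0.101), followed by Spr, sepiapterin reductase (0.06, SE 0.0530). Of 9 genes for later breakdown, Aldh1a1, an aldehyde dehydrogenase, had -0.08 (SE 0.0498) and Akr1a1, aldehyde reductase, 0.04 (SE 0.0322). Of 10 genes of the tryptophan and kynurenine branch 9 were tested, and the smallest p-values were those of Kynu, kynureninase, at 0.38 (SE 0.227), and Haao, an enzyme on the path to quinolinic acid, at -0.13 (SE 0.173).

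**Figure D4:**
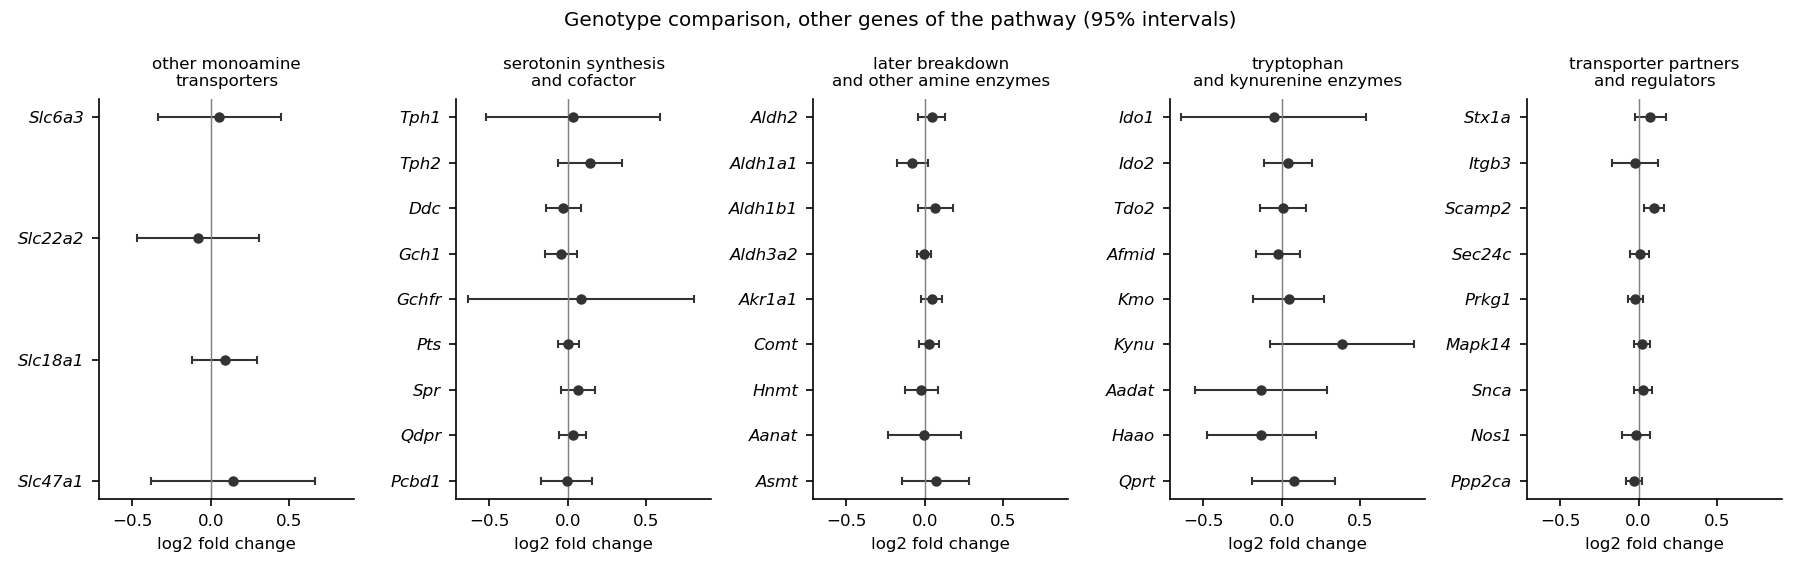
Log2 fold changes between genotype labels over all groups for other genes of the pathway in 5 lists, with 95% intervals as bars. No gene shown was called, and the interval of Scamp2, at 0.10, was the only one without 0.

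The members varied together across libraries in some pairs. Of 45 relations tested among members and marker scores, 3 had an adjusted permutation p under 0.05 for Pearson's r and 2 of them also for Spearman's rho. Maoa ran against Slc29a4 (r = -0.589, adjusted permutation p = 0.00045; rho = -0.557, adjusted permutation p = 0.00135) over 48 libraries. The raw permutation p of r, 1e-05, was the smallest that 100000 resamples can give, with libraries permuted without regard to group. The sign held in 6 of 6 groups, within which r ran from -0.84 to -0.0998. Without the 2 libraries farthest from the median of Maoa, r was -0.655. Within low-Ttr and high-Ttr libraries r was -0.658 and -0.749.

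Maoa also ran with Slc18a2 (r = 0.561, raw permutation p = 3e-05, adjusted 0.000675; rho = 0.447, raw permutation p = 0.00154, adjusted 0.0346), positive in 6 of 6 groups. Within these groups r ran from 0.0997 to 0.859. Without the 2 farthest libraries r was 0.464, and it was 0.610 in low-Ttr and 0.290 in high-Ttr libraries. The relation of Maob to the ependyma score had r = 0.425 (raw permutation p = 0.00255, adjusted 0.0382) but rho = 0.329 (raw permutation p = 0.0221, adjusted 0.186), with 0.213 in low-Ttr and 0.582 in high-Ttr libraries. The first principal component of 20028 genes after removal of group means held 16.6% of the variance. Its correlation with Slc18a2 was 0.849 in size and with Maoa 0.680, against 0.350 for Slc29a4, 0.162 for Slc22a3, 0.147 for Maob and 0.150 for Slc6a4. The part of this component in the relations between members was not tested.

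The ratio of Maob to Maoa reads within a library was 0.684 ± 0.103 (SD) in the 8 C, 0.723 ± 0.159 in the 8 SA and 0.657 ± 0.0494 in the 8 SU libraries labelled 5-Htt+/+. In 5-Htt+/- libraries it was 0.703 ± 0.0698 in C (n = 7), 0.651 ± 0.0935 in SA (n = 8) and 0.721 ± 0.109 in SU offspring (n = 9). Over 6 two-sided exact permutation tests between conditions of 1 genotype label the smallest p was 0.168, for SA against SU in 5-Htt+/-, with an adjusted p of 0.600. The genes most like the other members after removal of group means were Pitpnm2 (r = 0.829), Sipa1l2 (0.806) and Dsp (0.805) for Slc29a4, Gm37988 (0.783), Inpp1 (0.771) and Hecw2 (0.763) for Maoa, and Klhdc7a (0.707), Gm15851 (0.706) and Pdk4 (0.705) for Maob, each over 48 libraries.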

How the data were processed

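For 48 hippocampal libraries the authors deposited a table of raw read counts, whole numbers without normalisation. Alignment with STAR to GRCm38.p5 and HTSeq are listed in the submitters' processing notes, whereas the paper describes STAR and Salmon. Their versions and the strand setting are not given. Tests were run with edgeR 4.0.16 in R 4.3.3 (limma 3.58.1, with DESeq2 1.42.0 as an alternative). A gene was tested if 3 or more libraries had 5 or more reads of it. Library sizes were scaled by upper quartile factors, and 6 group means were fitted to all 48 libraries with edgeR's quasi-likelihood method. In all, 12 contrasts were tested with Benjamini-Hochberg adjustment over 31208 genes, and a gene was called at an adjusted p under 0.05. Standard errors are the log2 fold change divided by the root of F. None is given where a check found the test bounded by counting error. That check did not cover the smallest p-values. For Slc6a4 and Gm12343 between genotype labels none is given either, since their reads in 5-Htt+/+ libraries were few. A prior count of 2 was added for log2 CPM. The method was first tested on simulated data. Levels of different members are compared per kb of exon in GENCODE M21, whereas marker sums are in CPM and the Maob to Maoa ratio is in reads. Scores are means of log2 CPM over a marker list.

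The members and lists were chosen with earlier results of these data known. The text names the 7 members, of each list the called genes and the 2 with the smallest p between genotype labels, called genes and nearest neighbours within 200 kb of Slc6a4, and the genes most alike by Pearson's r (5 for Slc6a4, 3 for other members of at least 1 CPM other than Gm12343). The other genes called between genotype labels were added after their values were seen. Alternatives were a likelihood ratio test, DESeq2, TMM and RLE scaling, other filters, a replicate block, a choroid plexus covariate and leaving out each library. 1 listed gene that the rule names is not reported here. Protein sequences were not used here.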

Additional observations from a re-analysis of the deposited data

How the results depend on the processing

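The genotype difference of Slc6a4 over all groups stayed between 6.71 and 6.78 on the log2 scale under 8 other settings and was called under each, and it was 6.67 to 6.78 when each of 48 libraries was left out in turn. The count of members called over all groups fell from 2 to 1 with a filter of 10 reads in 7 libraries, since Gm12343 was then not tested, and ranged from 1 to 2 with a library left out: without 5-Htt+/- SA replicate 1, 6 or 8 Gm12343 no longer passed the filter. In SA offspring 2 members in place of 1 were called by the likelihood ratio test, where Gm12343 had an adjusted p of 0.013 against 0.193, and 1 to 2 with a library left out, the 2 being without 5-Htt+/+ SA replicate 7 (adjusted p = 0.0367). Slc29a4, near 0 between genotype labels, turned to -0.00205 with a replicate block and ranged from -0.022 to 0.029 with a library left out, while Slc22a3 ranged from -0.0586 to 0.0237. Of 4656 values of members under alternatives, 20 turned sign under the 8 settings, all at most 0.0387 in size, and 122 with a library left out. No value that turned had an adjusted p under 0.916. The member calls in the other 10 comparisons were the same under all alternatives.

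The replicate numbers of the labels did not pair the libraries. Deviations of 115 same-numbered pairs had a median r of -0.0148 (-0.365 to 0.577), 31 of them above 0.1, and 6 of 48 libraries were most like one of their own number. With the replicate block the genotype difference of Slc6a4 was 6.71 and that of Gm12343 2.77, both called. Counts of called genes over all 31208 depended more on the settings. For SU against C in 5-Htt+/- libraries 5 genes were called, 1 with the replicate block, 88 by the likelihood ratio test, 243 by DESeq2, and 1 to 273 with a library left out (273 without 5-Htt+/- C replicate 4). For SA against C in 5-Htt+/- the count was 8, against 3 with TMM scaling and 25 by DESeq2, and 2 to 16 with a library left out (16 without 5-Htt+/- C replicate 2), with 5 or fewer in 41 of 48. For prenatal stress it was 12, against 7 to 27 and, with a library left out, 2 (5-Htt+/- C replicate 5) to 22. Between genotype labels it was 7 (6 to 11) over all groups, 4 (3 to 7) in C, 3 (2 to 5) in SA and 3 (3 to 4) in SU offspring under the settings. With a library left out it was 6 to 10, 2 to 5, 2 to 4 and 3 to 4, the 2 in C being without 5-Htt+/+ C replicate 4 or 5 or 5-Htt+/- C replicate 1. It was 1 (0 to 3, and 0 to 2 with a library left out) for SU against C in 5-Htt+/+, 0 (0 under the settings, and 0 to 2) for SA against C in 5-Htt+/+, and 0 (0 to 1, and 0) for SA against SU in either label. The cause was not tested. Slc6a4 levels scaled by the raw total instead lay within 1 SD of those given. Slc6a4 in 5-Htt+/+ libraries rested on 0 to 6 reads, and Gm12343 on 0 to 8 reads. These low counts limit statements on these genes to the direction of the genotype difference, and leave its size less certain. For Gm12343 over all groups, mean CPM in 5-Htt+/- over 5-Htt+/+ libraries gave a ratio of 8.66, against a fitted fold of 6.82.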
